A study of Mus musculus with 2 samples.

Results

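Expression of the Hox cluster genes was compared between mouse E14 embryonic stem cells (ESCs) and E14-Sox2 TA/WT cells. The members were all rows of the deposited gene table named Hoxa, Hoxb, Hoxc or Hoxd followed by a number, which gave 39 of 24532 genes. E14 is an established mouse ESC line and served as the wild type. E14-Sox2 TA/WT was derived from it with CRISPR/Cas9 and selection of clones, and is heterozygous for Sox2 T258A, a change of threonine 258 to alanine. How many clones the library holds is not given in the sources used here. The substitution removes a residue that can carry O-GlcNAc, a sugar attached to serine or threonine of nuclear and cytoplasmic proteins, and the libraries were made to find genes that depend on it under self-renewal conditions. According to the study's methods, E14 was kept in medium with serum and LIF, the cytokine that sustains ESCs, whereas mutant clones were normally also given PD0325901 and CHIR99021, which inhibit Mek and Gsk3, and were used some passages after these had been withdrawn. Genotype, clonal selection and culture history therefore cannot be told apart, and each genotype had 1 library, so no difference below has a replicate check.

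Hox genes encode homeodomain transcription factors that give cells their position along the head-to-tail axis of the embryo. They lie in 4 clusters, and within a cluster the low-numbered genes act in anterior structures and are switched on first, while the high-numbered genes act in posterior structures and are switched on later. In undifferentiated ESCs the clusters are known to be largely silent and covered by Polycomb proteins, which keep developmental genes repressed. Genes with the same number in different clusters are paralogs that descend from 1 ancestral gene.

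Levels are given as TPM, a measure of transcript abundance scaled for gene length and library size, and as read counts. The log2 ratio is that of TPM in E14-Sox2 TA/WT cells over TPM in E14 cells, and the 95% interval beside it covers the counting of reads alone. The E14 library held 60263536 counted reads and the E14-Sox2 TA/WT library held 44609228. Hox genes took 3077 of these reads in E14, or 51.1 CPM (counts scaled to library size, exact 95% binomial interval 49.3 to 52.9), and 2281 in the mutant, or 51.1 CPM (49.1 to 53.3). The pluripotency gene Pou5f1 had a TPM of 1725 in E14 and 1759 in the mutant, and the edited gene Sox2 had 372.5 and 274.2, so both libraries carried the defining markers of ESCs. Nanog, another pluripotency gene, was lower (526.9 and 251.3, log2 ratio -1.07). Because the table holds no sequence, it does not show the T258A edit.

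The total of Hox reads was thus level between the libraries, while its distribution over the genes was not. Genes numbered 9 to 11 were higher in E14-Sox2 TA/WT cells in the Hoxa, Hoxc and Hoxd clusters, by 3.59-fold to 18.9-fold for the single genes with at least 20 reads. In all 4 clusters, the gene numbered 13 had a lower TPM in the mutant, although for Hoxd13 the difference was within counting error, and Hoxd1 at the other end of its cluster was lower too. Between these groups the directions were mixed.

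To show the sequence around the start sites on both sides of this division, promoters of 4 members with higher expression and 2 members with lower expression in the mutant are given here. Each runs from 250 bases before to 50 bases after the start site (RefSeq, GRCm38.p6), written 5′ to 3′ on the strand of the gene. The promoters lie at chr6:52218524-52218823 (- strand) for Hoxa7, chr6:52240805-52241104 (- strand) for Hoxa10, chr11:96281655-96281954 (+ strand) for Hoxb8, chr2:74691641-74691940 (+ strand) for Hoxd10, chr6:52260831-52261130 (- strand) for Hoxa13 and chr2:74762730-74763029 (+ strand) for Hoxd1. Capitals mark TTTATG or TTTATT on either strand, the core letters that Cdx homeodomain factors are known to bind. The 6 were picked as illustrations after the values and motif counts had been seen, in place of an earlier set, so they are no evidence about motifs, which the shares over all Hox promoters describe. The first 4 belong to genes that were higher in the mutant and the last 2 to genes that were lower.
Hoxa7: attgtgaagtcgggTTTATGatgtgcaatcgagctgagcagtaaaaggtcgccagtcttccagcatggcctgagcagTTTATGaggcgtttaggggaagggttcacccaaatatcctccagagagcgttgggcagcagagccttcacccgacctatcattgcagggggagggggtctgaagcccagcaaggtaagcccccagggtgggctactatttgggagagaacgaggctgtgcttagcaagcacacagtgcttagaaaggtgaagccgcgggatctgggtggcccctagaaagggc
Hoxa10: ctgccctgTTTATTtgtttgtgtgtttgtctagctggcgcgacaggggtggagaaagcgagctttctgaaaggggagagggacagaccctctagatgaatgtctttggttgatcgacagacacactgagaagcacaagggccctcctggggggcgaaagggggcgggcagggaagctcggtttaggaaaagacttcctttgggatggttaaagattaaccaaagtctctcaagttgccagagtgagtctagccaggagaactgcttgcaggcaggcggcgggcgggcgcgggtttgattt
Hoxb8: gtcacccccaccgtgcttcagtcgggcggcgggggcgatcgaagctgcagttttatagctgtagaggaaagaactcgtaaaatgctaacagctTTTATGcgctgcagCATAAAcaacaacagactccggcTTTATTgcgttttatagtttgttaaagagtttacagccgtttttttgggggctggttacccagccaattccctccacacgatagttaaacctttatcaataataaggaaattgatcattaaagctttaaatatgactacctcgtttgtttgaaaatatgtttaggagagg
Hoxd10: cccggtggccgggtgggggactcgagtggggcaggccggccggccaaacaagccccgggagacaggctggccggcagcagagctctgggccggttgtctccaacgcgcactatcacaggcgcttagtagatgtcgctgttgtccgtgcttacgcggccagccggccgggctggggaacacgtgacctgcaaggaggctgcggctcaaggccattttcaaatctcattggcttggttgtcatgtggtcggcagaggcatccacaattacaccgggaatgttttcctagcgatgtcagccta
Hoxa13: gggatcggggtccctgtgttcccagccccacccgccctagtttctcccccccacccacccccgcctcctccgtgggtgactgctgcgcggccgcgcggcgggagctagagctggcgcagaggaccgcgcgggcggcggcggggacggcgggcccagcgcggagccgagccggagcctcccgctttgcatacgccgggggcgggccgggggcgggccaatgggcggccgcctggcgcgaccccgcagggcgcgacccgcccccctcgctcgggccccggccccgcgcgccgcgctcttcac
Hoxd1: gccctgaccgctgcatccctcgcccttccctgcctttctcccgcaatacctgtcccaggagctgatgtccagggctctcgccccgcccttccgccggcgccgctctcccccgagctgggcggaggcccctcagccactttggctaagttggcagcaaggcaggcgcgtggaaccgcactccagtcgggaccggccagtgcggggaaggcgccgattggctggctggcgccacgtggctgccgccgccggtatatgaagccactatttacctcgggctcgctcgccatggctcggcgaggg
The Hoxa7 promoter holds 2 such matches, Hoxa10 holds 1 (and none at its other listed start) and Hoxb8 holds 3, while the other 3 promoters hold none. The RefSeq table gave 24 promoters for 22 of the 39 Hox genes. From Hoxb and Hoxc it gave only those of Hoxb1, Hoxb4, Hoxb8 and Hoxc4. The lower genes Hoxb13, Hoxc12 and Hoxc13 are thus missing, as are the higher genes Hoxb2, Hoxb3, Hoxb6, Hoxc6, Hoxc8, Hoxc9 and Hoxc10. Of the 24, 7 (29.2%) held at least 1 of these motifs, against 27.6% of all 32851 promoters of the same length, so the Hox share lies near the background. Among the 24, the 11 promoters of genes past 2-fold higher included 5 with a match and the 4 promoters of genes past 2-fold lower included 0. Hoxa10 and Hoxd11 each gave 2 of the 11. The motifs are rich in A and T, and the 5 with a match had 39.7% to 55.7% GC, against 58% to 81% in the 4. Motif and base composition were not separated. The half-site of retinoic acid receptors, AGGTCA, stood in 29.2% of Hox promoters and 16.3% of all promoters. Of the letters bound by Sox factors, CATTGT stood in 0 of the 24 Hox promoters and 12.6% of all promoters, and CTTTGT in 25.0% and 18.7%. TGACAG, bound by Meis factors, stood in 8.33% and 19.2%. Hox promoters held a median of 14.5 CpG dinucleotides, from 4 to 45, against a median of 7 over all promoters. The shown promoters hold from 9, in Hoxa7, to 45, in Hoxa13.

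Most Hox genes were expressed at a low level in both lines. Reads were found for 36 members in E14 and 37 in the mutant, and Hoxa6 and Hoxc11 had none in either. The median TPM over the 39 members was 0.419 in E14 and 0.868 in the mutant. A TPM of 1 was reached by 10 members in E14 and 19 in the mutant. A TPM of 10, the filter of the study's methods, was reached in E14 by Hoxc13 alone.

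**Figure D1:**
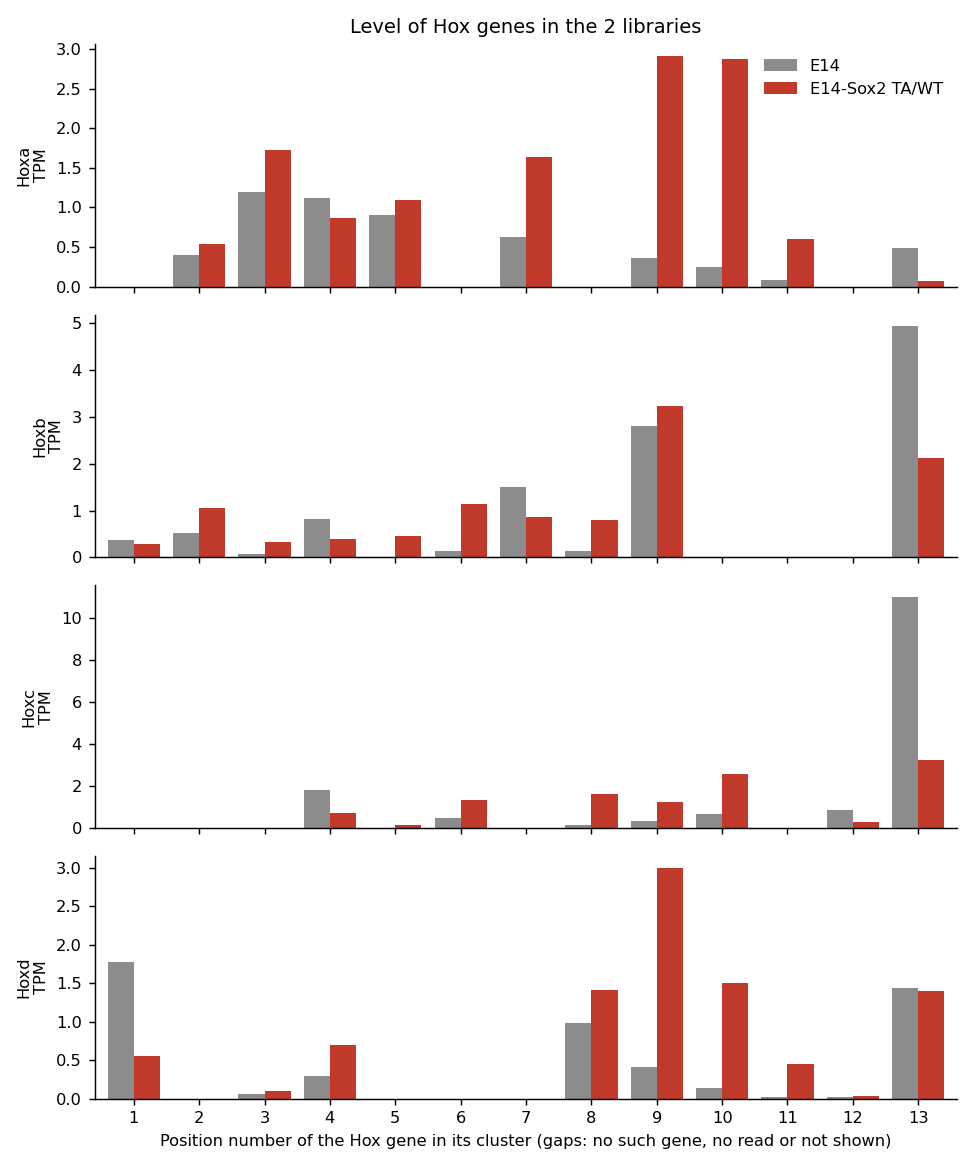
TPM (vertical axis, linear and of its own scale in each panel) of Hox genes by position number, with 1 panel per cluster and bars for E14 (grey) and E14-Sox2 TA/WT (red), 1 library each. Hoxb13 and Hoxc13 stand out in E14, while Hoxa9, Hoxa10 and Hoxd9 reach a TPM near 3 in the mutant only.

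The genes were next counted by direction. At least 20 reads over both libraries were found for 33 members, and the other 6 were Hoxa6, Hoxb5, Hoxc5, Hoxc11, Hoxd3 and Hoxd12. This filter took reads without scaling for depth. At a like gene length, a gene seen mainly in the deeper E14 library therefore passed at a lower level than one seen mainly in the mutant. Of the 33, 16 (48.5%) were more than 2-fold higher in E14-Sox2 TA/WT cells and 7 (21.2%) were more than 2-fold lower. Over all 15459 genes with as many reads, 7.08% were more than 2-fold higher and 13% more than 2-fold lower. Among the 6794 of these with a mean TPM under 10, the range in which every Hox gene lay, the shares were 11.3% and 25.6%. The share of Hox genes that were higher was therefore well above either background, whereas the share that were lower lay between these backgrounds. By the stricter rule that the whole interval lie past 2-fold, 12 members were higher and 1, Hoxc13, was lower, against 4.44% and 7.14% of all genes. The median log2 ratio of the 33 members was 0.53, against 0.01 for all 15459 genes and -0.23 for those with a mean TPM under 10. These counts describe the 2 libraries and are not a test.

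**Figure D2:**
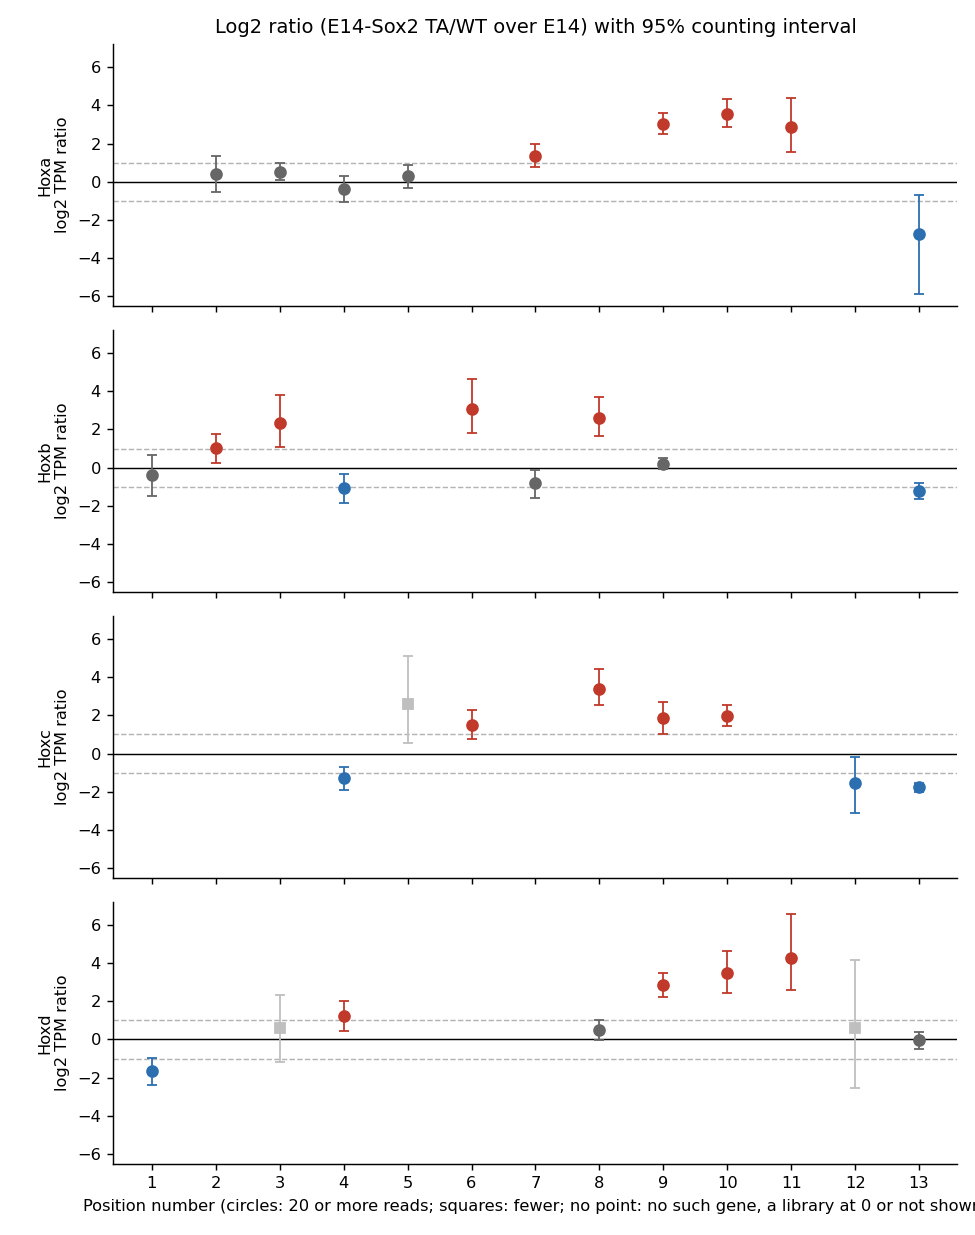
Log2 TPM ratio (E14-Sox2 TA/WT over E14, vertical axis) of Hox genes by position number, with 1 panel per cluster and bars for the 95% counting interval. Red circles are more than 2-fold higher, blue more than 2-fold lower, dark grey within 2-fold and light squares have fewer than 20 reads. Dashed lines mark 2-fold. The drawn genes numbered 9 to 11 lie above 0 in each panel and no gene numbered 13 does.

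The genes numbered 9, 10 and 11 act in the posterior trunk and the limb, and all but Hoxb9 of those with at least 20 reads were more than 2-fold higher. Hoxa9 had 36 reads (TPM 0.357) in E14 and 197 (2.92) in the mutant, a log2 ratio of 3.03 (2.51 to 3.59). Hoxa10 had 20 reads (0.243) and 144 (2.87), a log2 ratio of 3.56 (2.88 to 4.32). Hoxa11 had 6 reads (0.0833) and 29 (0.600), a log2 ratio of 2.85 (1.55 to 4.41). These 3 neighbours in the Hoxa cluster were all above 2-fold within counting error.

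In the Hoxd cluster, Hoxd9, Hoxd10 and Hoxd11, which act in the limb and the posterior trunk, differed by a like amount. Hoxd9 had 28 reads (TPM 0.419) in E14 and 134 (3.01) in the mutant, a log2 ratio of 2.84 (2.25 to 3.48). Hoxd10 had 9 reads (0.137) and 59 (1.51), a log2 ratio of 3.46 (2.44 to 4.66). Hoxd11 had 3 reads (0.0241) and 33 (0.456), a log2 ratio of 4.24 (2.57 to 6.59), the highest of the 33 members and also the one with the widest interval among those above 2-fold. That rank rests on 3 reads in E14, and with a pseudocount of 0.1 TPM its value was 2.16, below that of Hoxa10 (3.11). The Hoxc genes were higher by less. Hoxc9 had 19 reads (0.350) and 46 (1.26), a log2 ratio of 1.85 (1.05 to 2.70), and Hoxc10 had 40 reads (0.663) and 105 (2.59), a log2 ratio of 1.96 (1.43 to 2.53). Hoxb9, the only Hoxb gene in this range of numbers, was the exception. It was already the most abundant of the genes numbered 9 to 11 in E14, with 240 reads (2.81), had 185 reads (3.23) in the mutant, and its log2 ratio of 0.20 had an interval that spanned no difference (-0.09 to 0.48).

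Summed over the clusters, the 10 genes numbered 9 to 11 went from 401 reads (TPM 5.09) in E14 to 932 (18.4) in the mutant, a log2 ratio of 1.86 (1.69 to 2.03). Within Hoxa the sum of these 3 genes was 9.35-fold higher, within Hoxd 8.56-fold higher and within Hoxc 3.79-fold higher. This grouping of numbers was chosen after the values had been seen. In the broader groups set earlier, the genes numbered 9 to 13 were level as a whole, with a log2 ratio of the sum of 0.10 (-0.0043 to 0.21), while those numbered 12 and 13 went the other way. The genes numbered 1 to 3 had a log2 ratio of the sum of -0.38 (-0.54 to -0.22), and those numbered 4 to 8 had 0.56 (0.38 to 0.73).

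The genes at the posterior end of the clusters went the other way. Hoxc13, known for its role in hair and nails, was the most abundant Hox gene in E14, with 842 reads (TPM 10.99), and had 165 reads (3.21) in the mutant, a log2 ratio of -1.77 (-2.02 to -1.53). Hoxb13, a regulator of the tail and prostate, had 205 reads (4.93) and 60 (2.13), a log2 ratio of -1.21 (-1.65 to -0.79). Hoxa13, which acts in the digits and the genital tract, had 20 reads (0.483) and 2 (0.0718), a log2 ratio of -2.75 with a wide interval (-5.89 to -0.71). Hoxd13, also a gene of the digits, did not share this difference. It had 113 reads (1.44) and 74 (1.40), a log2 ratio of -0.04 (-0.48 to 0.39). Of the 2 genes numbered 12, Hoxc12 had 23 reads (0.848) and 6 (0.295), a log2 ratio of -1.52 (-3.11 to -0.19), and Hoxd12 had 2 and 3 reads, too few to compare. The 6 genes numbered 12 and 13 summed to a TPM of 18.7 in E14 and 7.15 in the mutant, a log2 ratio of -1.39 (-1.57 to -1.21). In Hoxa and Hoxc the change of sign thus fell between the gene numbered 13 or 12 and its next neighbour with reads, Hoxa11 or Hoxc10.

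At the anterior end, Hoxd1 was lower as well. It had 105 reads (TPM 1.78) in E14 and 22 (0.559) in the mutant, a log2 ratio of -1.67 (-2.40 to -0.99). Hoxb1, a gene of hindbrain segment identity, had 25 reads (0.380) and 13 (0.293), a log2 ratio of -0.38 whose interval spanned no difference (-1.47 to 0.64).

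The genes numbered 2 and 3, which act in the hindbrain and the branchial arches, were level or higher. Hoxb2 had 27 reads (TPM 0.526) in E14 and 37 (1.06) in the mutant, a log2 ratio of 1.01 (0.25 to 1.78), at the threshold within counting error. Hoxb3 had 7 reads (0.0667) and 24 (0.335), a log2 ratio of 2.33 (1.07 to 3.79). Hoxa3 had 96 reads (1.19) and 93 (1.73), a log2 ratio of 0.53 (0.11 to 0.96). Hoxa2 had 23 and 20 reads and Hoxd3 had 7 reads in each library, and neither was resolved from no difference.

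Among the genes numbered 4 to 8, which pattern the neck and the thorax, directions were mixed, also within a cluster. The paralogs numbered 4 were split. Hoxb4, known for its effect on blood stem cells, had 67 reads (TPM 0.817) in E14 and 21 (0.388) in the mutant, a log2 ratio of -1.07 (-1.86 to -0.35). Hoxc4 had 112 reads (1.79) and 31 (0.735), a log2 ratio of -1.28 (-1.91 to -0.70). Hoxd4 had 25 reads (0.298) and 38 (0.695), a log2 ratio of 1.22 (0.46 to 2.01), and Hoxa4, with 54 and 28 reads, was not resolved (-0.37, -1.08 to 0.31). The intervals of Hoxb4 and Hoxc4 did not overlap that of their paralog Hoxd4.

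Genes numbered 6 and 8 were mostly higher. Hoxc8, which acts in the thoracic spinal cord, had 12 reads (TPM 0.154) in E14 and 82 (1.63) in the mutant, a log2 ratio of 3.41 (2.52 to 4.42). Hoxb8 had 11 reads (0.130) and 45 (0.798), a log2 ratio of 2.62 (1.65 to 3.72). Hoxd8, with 64 reads (0.991) and 63 (1.41), was not resolved (0.51, -0.01 to 1.04). Of the genes numbered 6, Hoxb6 had 6 reads (0.136) and 32 (1.14), a log2 ratio of 3.08 (1.80 to 4.63), and Hoxc6 had 24 reads (0.477) and 46 (1.35), a log2 ratio of 1.505 (0.76 to 2.28). Hoxb5 had no read in E14 and 18 in the mutant, which is 8.95-fold higher when 3 reads are set for E14 (log2 interval from 2.71 upward). Hoxc5 had 3 and 9 reads (2.58, 0.58 to 5.10), and Hoxa5, with 54 and 44 reads, was not resolved (0.28, -0.33 to 0.88). The 2 genes numbered 7 went apart. Hoxa7 had 39 reads (0.631) and 68 (1.63), a log2 ratio of 1.37 (0.78 to 1.98), and Hoxb7 had 61 reads (1.51) and 23 (0.856), a log2 ratio of -0.82 (-1.58 to -0.11).

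**Figure D3:**
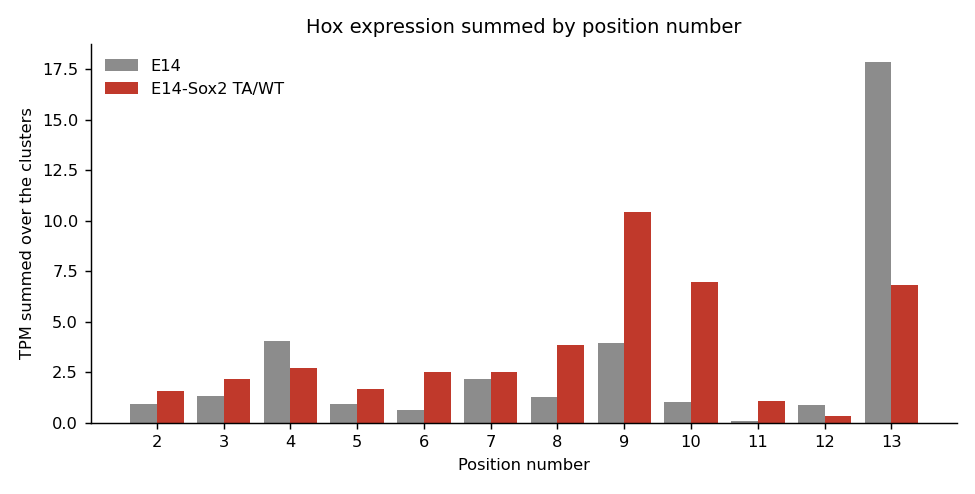
TPM summed over the Hox clusters (vertical axis) by position number from 2 to 13, for E14 (grey) and E14-Sox2 TA/WT (red), 1 library each. The sum was lower in the mutant at numbers 4, 12 and 13 and higher at 2, 3 and 5 to 11, from 1.04 to 6.97 at number 10 and from 17.8 to 6.82 at number 13.

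By cluster, each of the 4 had 4 genes more than 2-fold higher. Hoxa (chromosome 6) held 11 genes, of which 1 was more than 2-fold lower. Its summed TPM was 13.9 in E14 and 17.6 in the mutant, a log2 ratio of 0.34 (0.21 to 0.47). Hoxd (chromosome 2, 74668225 to 74765142 on GRCm38) held 9 genes, with 1 more than 2-fold lower, and its sum went from 5.18 to 9.17, a log2 ratio of 0.83 (0.62 to 1.03). Both cluster sums were therefore higher, but each rise rested on the genes numbered 9 to 11, a grouping chosen after the values had been seen. The summed TPM of these genes went from 0.683 in E14 to 6.39 in the mutant in Hoxa. In Hoxd it went from 0.581 to 4.97. The other genes of each cluster summed to no more in the mutant than in E14.

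Hoxb (chromosome 11, 96194316 to 96368254) held 10 genes, with 2 more than 2-fold lower, and its sum was level at 11.3 and 10.7 (-0.08, -0.26 to 0.09). Hoxc (chromosome 15, 102921131 to 103036856) held 9 genes, with 3 more than 2-fold lower. Its sum was lower in the mutant, with 15.3 and 11.2 (-0.45, -0.60 to -0.29), although the median log2 ratio of its 7 genes with at least 20 reads was 1.505. That direction rested on Hoxc13, without which the log2 ratio of the Hoxc sum was 0.89. Over all 39 genes the sum was 45.7 and 48.7, a log2 ratio of 0.09 (0.01 to 0.17), which became 0.39 without Hoxc13 and -0.052 with FPKM in place of TPM. The median log2 ratio over all genes with at least 20 reads on the same chromosomes was -0.04 on chromosome 6, -0.03 on 11, -0.23 on 15 and 0.01 on 2.

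Differences beyond the cluster ends were examined in the 3 nearest genes with at least 20 reads on each side. Of these 24 genes, 3 were more than 2-fold higher and 3 more than 2-fold lower, beside 7.08% and 13% of all genes. Evx1, a homeobox gene of the primitive streak and spinal cord, lies 52.6 kb beyond Hoxa13 and had 2 reads in E14 and 94 in the mutant (TPM 0.0221 and 1.55), a log2 ratio of 6.13 (4.24 to 9.20). Its antisense transcript Evx1os had 0 and 34 reads, 16.9-fold higher with 3 reads set for E14 (log2 interval from 3.70 upward). Evx1 and Evx1os were thus higher on the far side of Hoxa13, which was itself lower. Their spans overlap and the counting of strand is not stated, so they may share reads. Evx2, the counterpart beside Hoxd13, had no read in either library. On the other side of Hoxa, Skap2 (0.57) and the noncoding Halr1 (0.50) were less than 2-fold higher. Next to Hoxb13, Ttll6 (-1.18) and Calcoco2 (-1.67) were more than 2-fold lower, as was Skap1 (-1.07) beyond Hoxb1. Mtx2 (-0.48) and Lnp (0.09), the nearest such genes on the sides of Hoxd, were within 2-fold. The last of the 3 that were higher was Hnrnpa1 near Hoxc (2.60), a gene with many processed copies whose count is uncertain.

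The clusters also hold 19 other genes of the table, and 7 of them had at least 20 reads. Of these 7, 3 were more than 2-fold higher and 0 more than 2-fold lower, beside shares of 11.3% and 25.6% among genes with a mean TPM under 10 and 7.08% and 13% among all. All 19 are noncoding. Mira, a noncoding RNA between Hoxa6 and Hoxa7, had 35 and 53 reads, a log2 ratio of 1.20 (0.56 to 1.86). Mir196a-1, the gene of a miRNA known to act on Hox mRNAs, had 11 and 19 reads (1.37, 0.23 to 2.59), which in polyadenylated RNA do not measure the mature miRNA. Hoxa11os, antisense to Hoxa11, had 8 and 14 reads (1.32), with an interval that spanned no difference (-0.03 to 2.78). The antisense transcripts Hoxaas3 (0 and 19 reads) and Hoxb5os (0 and 17 reads) were seen in the mutant only. With 3 reads set for E14 they were 9.45-fold and 8.46-fold higher (log2 intervals from 2.80 and 2.62 upward). Hotairm1 had 26 and 10 reads (-0.80, -2.01 to 0.30). Hotair had no read in either library. The counting of strand is not stated, and reads of a Hox gene and an antisense partner cannot be told apart where exons overlap, which in the GENCODE annotation concerned, among others, 52.9% of the exon bases of Hoxb3, 35.0% of Hoxa11, 27.3% of Hoxb2 and 20.4% of Hoxa7. On the same strand, Hoxd4 shared 39.1% of its exon bases with the transcript Gm28230, which also covers 53.1% of Hoxd3, and Gm28309 shared 10.8% of the exon bases of Hoxd11 and 5.73% of those of Hoxd10. Hoxa9, Hoxa10, Hoxd9, Hoxd10, Hoxd11, Hoxc13 and Hoxb13 shared no exon bases with an antisense gene.

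Genes known to act with or upstream of Hox genes were set beside them. The TALE homeodomain proteins Pbx, Meis and Pknox bind DNA together with Hox proteins. All 9 of their genes had at least 20 reads, and 4 were more than 2-fold higher and 0 more than 2-fold lower, against 7.08% and 13% of all genes, with a median log2 ratio of 0.19. Meis2 (TPM 0.565 and 1.94) had a log2 ratio of 1.78, Pbx3 (6.999 and 17.8) 1.34 and Meis1 (0.494 and 1.15) 1.22. Pbx2 (-0.21) and Pknox1 (-0.04), the most abundant of the list in E14, were within 2-fold.

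The Cdx genes encode homeodomain factors that activate central and posterior Hox genes in the tail end of the embryo, and they went apart. Cdx2 had 32 reads (TPM 0.474) in E14 and 554 (12.2) in the mutant, a log2 ratio of 4.69 (4.18 to 5.25). Cdx1 had 1667 reads (30.2) and 246 (6.66), a log2 ratio of -2.18 (-2.38 to -1.99), and Cdx4 had 15 and 10 reads. Of the 17 genes of a list of caudal epiblast regulators, which includes these 3, 16 had at least 20 reads, and 7 were more than 2-fold higher and 3 lower. Over all genes these shares were 7.08% and 13%, and 11.3% and 25.6% at a mean TPM under 10. T (3.88), Nkx1-2 (4.77), Wnt5a (4.96), Sp5 (2.93), Sp8 (2.23) and Fgf8 (2.17) were higher besides Cdx2, while Wnt3a (-1.31) and Hes7 (-2.60) were lower besides Cdx1. Whether these genes have a part in the Hox differences was not tested.

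Retinoic acid induces the anterior Hox genes, and genes of its pathway were examined next. Of 17 with at least 20 reads, 6 were more than 2-fold lower and 2 more than 2-fold higher, with a median log2 ratio of -0.60. Lower calls also outnumbered higher ones over all genes (13% and 7.08%). Stra8, a known target, had 9054 reads (TPM 197.6) in E14 and 258 (8.40) in the mutant, a log2 ratio of -4.56. Rarb, a receptor that is itself a target, had 20 and 0 reads, 4.47-fold lower with 3 reads set for the mutant (log2 interval up to -1.73). Stra6 (-3.20), Crabp1 (-1.40) and Cyp26b1 (-1.12) were lower as well. Cyp26a1, which degrades retinoic acid and is also induced by it, was higher (34 and 171 reads, 2.90), as was the receptor gene Rxrg (1.86).

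Genes of the chromatin complexes that hold Hox clusters silent or active differed less. Of 30 Polycomb genes in the table, 26 were within 2-fold, including the core subunit genes Ezh2 (0.17), Eed (0.36), Suz12 (0.23) and Rnf2 (0.47). Jarid2 (1.15) and Kdm2b (1.29), which help to recruit the complexes, were more than 2-fold higher, and 2 genes were more than 2-fold lower, among them Cbx8, which reads the Polycomb mark (-3.23, with 85 and 6 reads). Over all genes with at least 20 reads, 7.08% were more than 2-fold higher and 13% more than 2-fold lower. The 2 higher of 30 lay near the first share, and the 2 lower of 30 lay below the second. Another list held genes of trithorax complexes and the histone demethylase genes Kdm6a and Kdm6b, which oppose Polycomb. It also held Dot1l, Mllt1, Mllt3, Aff1 and Aff4, which are in neither class. All 17 genes of this list were within 2-fold, from Rbbp5 (-0.32) to Kmt2a (0.85), with a median of 0.42.

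**Figure D4:**
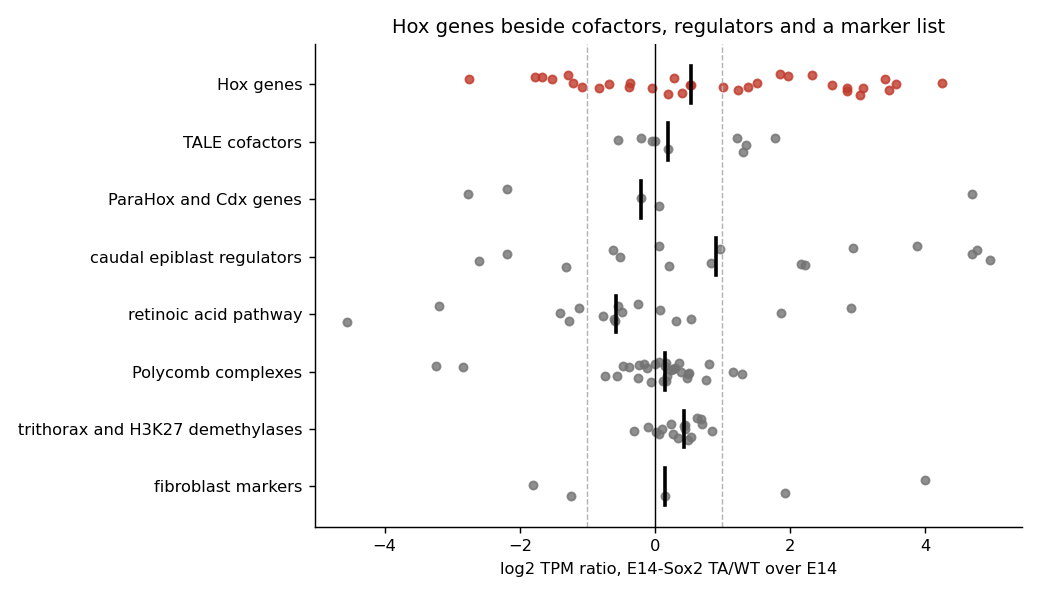
Log2 TPM ratio (horizontal axis, E14-Sox2 TA/WT over E14) of Hox genes and of 7 gene lists, with 1 point per gene with at least 20 reads and a black bar at the median. Dashed lines mark 2-fold. Rarb, at 0 reads in the mutant, is not drawn. Hox genes spread on both sides of 0, from -2.75 to 4.24, while the trithorax list stays within 2-fold.

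Fibroblasts and other somatic cells express Hox genes, so their markers were measured too. Of 9 fibroblast markers, 5 had at least 20 reads, of which Col3a1 (15 and 151 reads, 4.003) and Col1a2 (43 and 109 reads, 1.93) were higher, Thy1 (-1.81) and Pdgfrb (-1.24) were lower, and Col1a1 (0.15) was within 2-fold. Dcn, Lum and Postn had no read in either library, and the summed TPM of the list was 49.99 in E14 and 19.8 in the mutant, or 9.93 and 8.43 without Thy1. Markers of the caudal epiblast and early mesoderm summed to a TPM of 7.68 and 40.7, and of the 7 with at least 20 reads T, Cdx2, Nkx1-2 and Fgf8 were more than 2-fold higher and Wnt3a was lower. Markers of neural progenitors summed to 13.5 and 55.6, with 4 of 5 higher (Nes, Pax6, Sox1 and Sox3). Of the trophoblast markers 3 of 5 were higher and 1 was lower, while Elf5 had no read and the sum went from 56.9 to 39.2, or from 5.96 to 23.2 without Tfap2c. Beside these counts, 7.08% of all genes with at least 20 reads were more than 2-fold higher and 13% more than 2-fold lower. Among those with a mean TPM under 10 the shares were 11.3% and 25.6%. In these bulk libraries, a few cells with high Hox expression and many cells with low Hox expression cannot be told apart, and the part of such cells in the Hox values was not tested.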

How the data were processed

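Polyadenylated RNA of 1 E14 and 1 E14-Sox2 TA/WT library was sequenced on a NovaSeq instrument, and the libraries were grouped by their labels. The authors deposited 1 gene table (mm10, 24532 rows). Its deposited read counts are raw whole numbers per gene. Its deposited FPKM values divide by gene length and library size. The deposited TPM values rescale these to a near-constant total per library. It holds no comparison columns. The submitters' processing notes name bcl2fastq 2.20.0, Trimmomatic, HISAT2 2.1.0 and StringTie 2.1.3b without roles. Treatment of strand and of reads shared between genes is not given in the sources used here.

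Ratios of TPM (mutant to E14) used no pseudocount, a minimum of 20 reads over both libraries and the 2-fold threshold of the study's methods. With 1 library per genotype no test was possible. The 95% interval is the exact Clopper-Pearson interval of the reads (scipy 1.17.1) placed on the TPM scale. For sums it uses the summed reads. Intervals and the floor of 3 reads (0.0498 CPM in E14, 0.0673 in the mutant) cover counting error only. A fold against the floor leaves out the counting error of the library that had reads. Ratio and interval were tested on simulated data. All Hox genes, listed genes, genes inside a cluster and the 3 nearest on each side could be named, except that the values of 1 Hox gene and some listed genes are not reported here, although counts, medians and sums include them. Members and lists were chosen with earlier results of these data known. Positions and promoters came from RefSeq (GRCm38.p6) and exons from GENCODE vM21. Alternatives were FPKM, CPM, TMM (edgeR 4.0.16), median of ratios (DESeq2 1.42.0), centring and other filters, folds and pseudocounts. Chosen after seeing the data were a correction for GC and length, sums without Hoxc13, Thy1 or Tfap2c, the grouping of numbers 9 to 11 and 12 to 13, the backgrounds by mean TPM and chromosome, and the promoters printed.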

Additional observations from a re-analysis of the deposited data

How the results depend on the processing

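No paired analysis was possible because each genotype had 1 library, and no library could be left out. The 16 Hox genes more than 2-fold higher numbered 12 to 16 under the scalings, the composition correction, the read filters, the other folds and the interval rule, but the filter at a TPM of at least 10 left 0, since only Hoxc13 passed it. The 7 that were lower numbered 5 to 9 under the other alternatives, but became 3 at 3-fold and 1 each with the interval rule and with the TPM filter. The log2 ratio of the summed Hox TPM (0.09) became -0.052 with FPKM, 0.0021 with CPM and 0.39 without Hoxc13, so its direction is not settled. The Hoxa sum became 0.20 with FPKM, and the Hoxc sum became -0.70 with CPM, which weighs genes by reads, and 0.89 without Hoxc13. FPKM and CPM each moved the median of all genes to -0.13. Hoxb2 fell under 2-fold with FPKM, CPM and centring, and Hoxb4 and Hoxb13 with the GC and length trend removed, where Hoxd13 changed sign. Of the 23 genes past 2-fold, 3 came within 2-fold with a pseudocount of 0.1 TPM and 16 with 1 TPM, which exceeds the level of most Hox genes in E14. There Hoxd11 became 0.51, Hoxa11 0.56, Hoxb3 0.32, Hoxb6 0.92 and Hoxa13 -0.47, and 6 genes remained higher and 1 lower. No gene past 2-fold changed sign under any alternative run. By counting error, 7 of 33 intervals spanned no difference, and the spread between cultures was not measured.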

Other observations

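Other homeobox genes outside the Hox clusters, from a list of Evx, Mnx, Meox, Gbx and En genes, were mostly higher in E14-Sox2 TA/WT cells. Of the 7 with at least 20 reads, 5 were more than 2-fold higher and 1 was more than 2-fold lower, beside 7.08% and 13% of all genes. Besides Evx1, Gbx2, a gene of the midbrain-hindbrain boundary that also acts in pluripotent cells, had 830 reads in E14 and 2879 in the mutant, a log2 ratio of 2.37 (2.26 to 2.49). En1 (26 and 60 reads, 1.79) and En2 (389 and 559 reads, 1.10), which act in the same region, and Meox1 (19 and 38 reads, 1.65), a gene of the somites, were higher too. Mnx1, a gene of motor neurons and the pancreas, went from 66 reads to 2, a log2 ratio of -4.63 (-7.70 to -2.72). Of the ParaHox genes besides Cdx, Gsx2 had 112 and 11 reads (-2.76, -3.81 to -1.87), while Gsx1 had 19 and 11 reads and was not resolved. Pdx1 had 17 and 0 reads, 3.797-fold lower with 3 reads set for the mutant (log2 interval up to -1.47).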
